A study of Mus musculus with 3 samples.

Results

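The T cell receptor of CD4 T cells is a pair of an alpha and a beta chain, and the first part of each chain is encoded by a variable (V) segment, Trav for alpha and Trbv for beta. These 163 V segments, 128 Trav and 35 Trbv among 28692 genes listed, were taken by symbol prefix from the annotation deposited with the wild-type libraries. TEa cells are CD4 T cells of a receptor-transgenic line that recognises an I-E alpha alloantigen of BALB/c mice. C57BL/6 recipients were given congenically marked naive TEa cells, wild-type or Ldha-/-, before transplantation of a BALB/c heart, and TEa cells were sorted 7 days after surgery. Wild-type cells were sorted from the heart allograft (1 library) and from the spleen (1 library), and both are described here. The Ldha-/- spleen library was not analysed here, because no gene names were used for its rows. The labels give neither the age of the mice, nor how many were pooled, nor the congenic marker used for the sort.

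During development in the thymus, V segments are joined to J segments (and D segments for beta) by the Rag1 and Rag2 recombinase, so that a mature T cell usually transcribes 1 productive beta chain and 1 or 2 alpha chains. The joined segment is transcribed together with a constant gene, Trac for alpha and Trbc1 or Trbc2 for beta. A receptor transgene supplies chains that are already joined. A transgenic beta chain usually blocks joining of the endogenous beta loci, while endogenous alpha loci can still be joined unless the mice lack Rag genes, and the labels do not state the Rag genotype. The TEa receptor uses V beta 6, encoded by Trbv19, and V alpha 2, encoded by the Trav14 family. Mouse Trav segments occur in near-identical copies with d or n in the name, so that a read can match several members.

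The sequences below are those of Trbv19, of the Trav14 member with most reads, of the next Trav14 members, and of Trav21-dv12, the other segment with most reads. They are the last 300 bases of each coding sequence, from GENCODE M21 on GRCm38. Trbv19 lies at chr6:41178375-41179048 on the plus strand. The others lie on the plus strand of chromosome 14, with Trav14d-3-dv8 at chr14:53078452-53079045, Trav14-2 at chr14:53640701-53641225, Trav14-3 at chr14:53763173-53763694 and Trav21-dv12 at chr14:53875984-53876752. In Trbv19, Trav14d-3-dv8 and Trav21-dv12 capitals start at the codon of the conserved cysteine, from which the joined end of the segment runs into the third loop that contacts antigen. In Trav14-2 and Trav14-3 capitals mark instead the bases that differ from Trav14d-3-dv8 or are missing there.
Trbv19: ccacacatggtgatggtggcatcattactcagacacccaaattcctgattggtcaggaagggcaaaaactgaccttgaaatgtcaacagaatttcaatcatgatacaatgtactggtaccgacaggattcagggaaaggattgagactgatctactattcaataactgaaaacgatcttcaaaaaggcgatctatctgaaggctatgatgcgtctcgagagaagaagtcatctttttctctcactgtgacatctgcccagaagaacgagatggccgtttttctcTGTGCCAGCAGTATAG
Trav14d-3-dv8: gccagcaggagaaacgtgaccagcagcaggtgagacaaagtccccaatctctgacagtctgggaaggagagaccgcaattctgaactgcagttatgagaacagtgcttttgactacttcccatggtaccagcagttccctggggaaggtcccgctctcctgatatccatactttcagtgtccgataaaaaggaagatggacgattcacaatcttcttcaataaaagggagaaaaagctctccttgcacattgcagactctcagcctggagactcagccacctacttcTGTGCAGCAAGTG
Trav14-2: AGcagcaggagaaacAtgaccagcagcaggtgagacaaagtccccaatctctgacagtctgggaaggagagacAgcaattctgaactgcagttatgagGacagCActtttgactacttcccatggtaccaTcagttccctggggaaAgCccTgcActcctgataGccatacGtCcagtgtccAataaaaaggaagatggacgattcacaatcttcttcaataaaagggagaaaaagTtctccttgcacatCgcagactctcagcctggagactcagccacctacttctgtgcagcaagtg
Trav14-3: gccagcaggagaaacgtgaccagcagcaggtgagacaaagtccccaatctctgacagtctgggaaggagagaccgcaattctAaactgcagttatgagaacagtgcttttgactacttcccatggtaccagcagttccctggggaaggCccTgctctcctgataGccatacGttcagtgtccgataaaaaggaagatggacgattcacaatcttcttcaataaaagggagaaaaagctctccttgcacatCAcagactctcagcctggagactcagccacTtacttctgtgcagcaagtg
Trav21-dv12: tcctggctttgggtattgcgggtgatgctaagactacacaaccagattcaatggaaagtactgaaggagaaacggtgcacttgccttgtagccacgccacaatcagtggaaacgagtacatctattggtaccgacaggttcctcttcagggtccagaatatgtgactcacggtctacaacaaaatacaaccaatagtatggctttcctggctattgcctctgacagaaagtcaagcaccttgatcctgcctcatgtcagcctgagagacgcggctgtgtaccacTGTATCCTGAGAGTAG

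Trav14-3 shared 97.2% of its aligned bases with Trav14d-3-dv8 (10 mismatches in 361 bases), Trav14-2 shared 95.3% (17 mismatches) and Trav14-1 shared 93.6% (23 mismatches). Because these members are so alike, the family is summed below and each member's own count is uncertain. The degree differs by member. Of stretches of 90 bases (windows), 92.1% in Trav14d-3-dv8 were unique among Trav, Trbv and Trdv transcripts. This share was 90.3% in Trav14-2, 100% in Trav14-1 and 69.2% in Trav14-3. The Trbv19 coding sequence of 352 bases and the Trav14d-3-dv8 sequence of 361 bases are of about the same length, and CPM values (counts of UMIs scaled to a common total of the library's kept cells) were not scaled by length.

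The kept cells numbered 3987 in the heart library and 6569 in the spleen library, with medians of 8237 and 7988 unique molecular identifiers (UMIs, each standing for 1 captured RNA molecule). They held 42274200 and 56239410 UMIs in all. A further 87 heart and 14 spleen barcodes with macrophage and dendritic cell genes (Lyz2, Cd74) were left out, and 6 barcodes were kept in both libraries. Cd4 was at 144 CPM in heart cells and 208 CPM in spleen cells. A UMI of Cd8a, which CD4 T cells lack, was found in 23 heart cells and 1 spleen cell. A UMI of Cd8b1, the other CD8 T cell marker listed, was found in 243 heart cells (6.09%) and 260 spleen cells (3.96%). With 1 library per tissue there was no test, tissue and library cannot be told apart, and every interval in parentheses is a 95% interval that covers counting error only.

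V segments were rare transcripts. All Trbv segments together gave 1592 UMIs in heart cells (37.7 CPM) and 1799 in spleen cells (32.0 CPM), and all Trav segments gave 3642 UMIs (86.2 CPM) and 5149 UMIs (91.6 CPM). The libraries were made with 3' chemistry, which reads the end of a transcript far from the V segment, and Trac itself was at 2574 and 2004 CPM. A UMI of any Trbv was found in 30.4% of heart cells and 22.8% of spleen cells, and a UMI of any Trav in 52.1% and 44.4%. Cells without a UMI of a family are in no class of that family below.

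Trbv19 and Trav14d-3-dv8 stood far above all other members in both libraries, and both were higher in heart cells. Trbv19 gave 1396 UMIs in the heart library and 1419 in the spleen library, a heart level 1.31 times the spleen level (1.21 to 1.41). Trav14d-3-dv8 gave 2812 and 2803 UMIs, a ratio of 1.33 (1.27 to 1.41). The other segments went the opposite way. The 34 other Trbv segments summed to 196 UMIs in heart (4.64 CPM) and 380 in spleen (6.76 CPM), 1.46 times higher in spleen (1.22 to 1.74). The 119 Trav segments outside the Trav14 family summed to 774 UMIs (18.3 CPM) and 2129 UMIs (37.9 CPM), 2.07 times higher in spleen (1.90 to 2.25). The lower Trav14 share of spleen cells thus had 2 measured parts, a lower Trav14 level and a higher level of other Trav segments, and total Trav CPM differed by a factor of 1.06 (1.02 to 1.11).

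**Figure D1:**
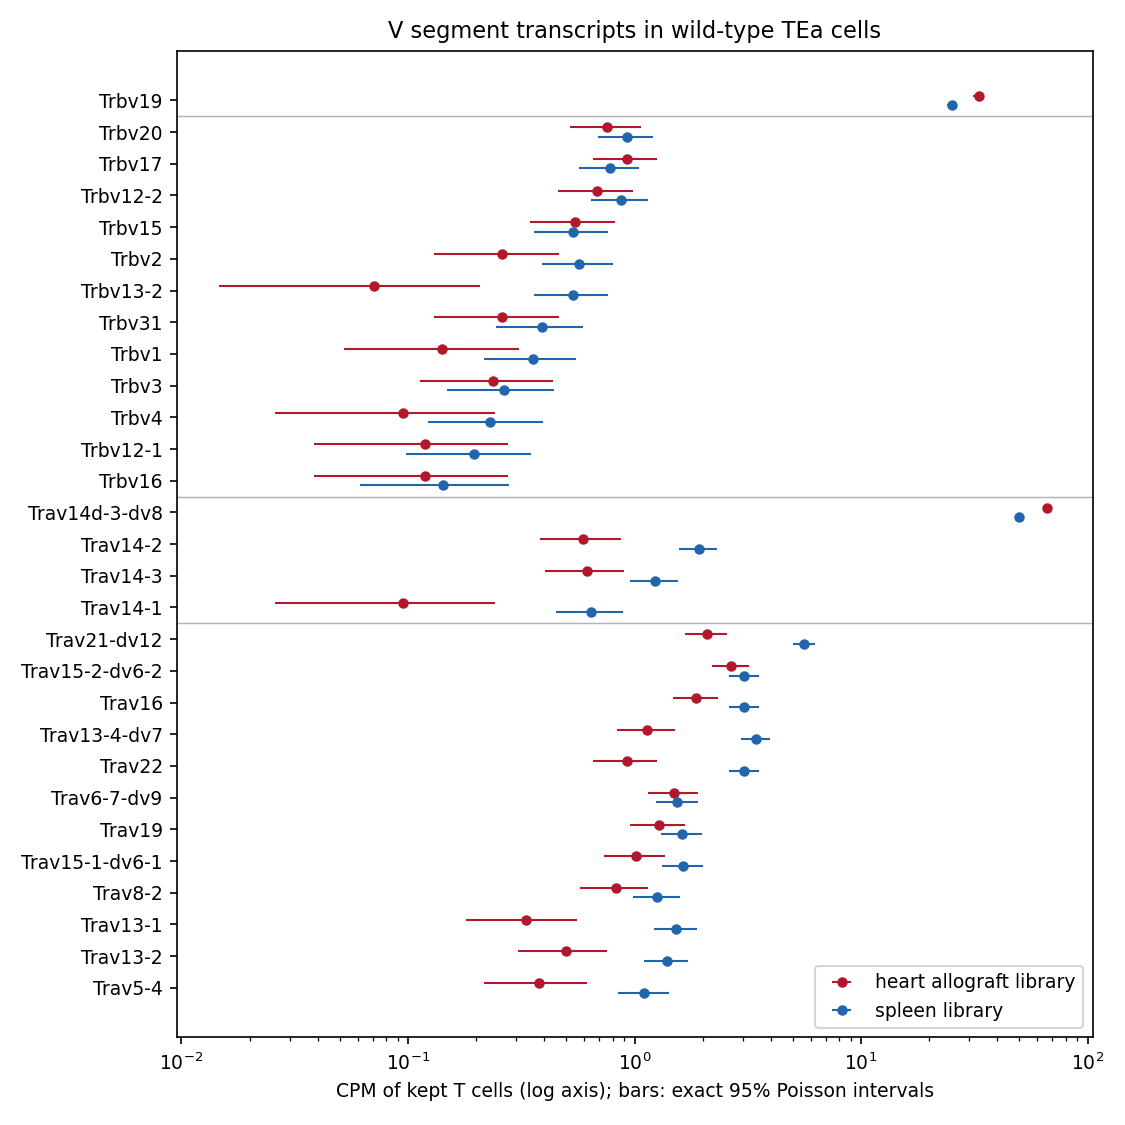
CPM of each named V segment in kept T cells of the heart allograft library (red) and the spleen library (blue), on a log axis, with exact 95% Poisson intervals as bars. Trbv19 and Trav14d-3-dv8 stand above 25 CPM in both libraries, no other segment reaches 6 CPM, and most other Trav segments lie further right in spleen.

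Of the 163 segments, 16 reached 1 CPM in either library, and 7 of these were at least 2-fold lower in heart cells while 0 were at least 2-fold higher. A segment could pass this level through 1 library alone. Some passed through spleen alone and none through heart alone, so the split of 7 and 0 is not independent of the level. Among all 10525 genes at that level, 15.7% were at least 2-fold lower in heart and 10.9% at least 2-fold higher. With totals that leave out mitochondrial, ribosomal protein and Malat1 UMIs, 13 of 24 segments were at least 2-fold lower and 0 higher, against 21.1% and 9.83% of all genes. At a level of 0.5 CPM 15 of 28 segments were lower and 0 higher, against 16.6% and 12% of all genes, and at 3 CPM 3 of 7 were lower and 0 higher, against 13.6% and 9.91%. The median log2 ratio of heart over spleen, taken on CPM + 1, was -0.48 over the 16 segments and -0.16 over all genes tested. All 7 lower segments were Trav, but so were 15 of the 16 at this level. Trbv19 was the only Trbv among them, so this count does not compare alpha with beta segments. Trav21-dv12, a segment that can be used in either an alpha or a delta chain, had 88 UMIs in the heart library and 315 in the spleen library, 2.69 times higher in spleen (2.12 to 3.45). Trav13-4-dv7, also shared with delta, had 48 and 193 UMIs (3.02 times higher, 2.19 to 4.24). Trav22, annotated as a pseudogene, had 39 and 171 UMIs (3.30 times higher, 2.32 to 4.79).

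The remaining 4 were Trav14-2, Trav13-1, Trav13-2 and Trav5-4. These 4 and Trav22 were under 1 CPM in heart cells and passed the level only through spleen cells, where they were higher. Trav13-1 had the largest ratio of the 7, with 14 heart and 86 spleen UMIs, 4.62 times higher in spleen (2.61 to 8.80). For some other common Trav segments the interval of the ratio included 1. Trav15-2-dv6-2 had 113 and 172 UMIs, a heart level 0.874 times the spleen level (0.683 to 1.11), and Trav6-7-dv9 had 63 and 87 UMIs, 0.963 times (0.685 to 1.35). Trav19 had 54 and 91 UMIs, 0.789 times (0.553 to 1.12). For others it lay below 1 with less than a 2-fold difference. Trav16 (79 and 171 UMIs) was 1.63 times higher in spleen (1.24 to 2.15), Trav15-1-dv6-1 (43 and 92 UMIs) was 1.61 times higher (1.11 to 2.37), and the pseudogene Trav8-2 (35 and 71 UMIs) had a heart level 0.656 times the spleen level (0.424 to 0.996).

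Within the Trav14 family the minor members had lower levels in heart, unlike Trav14d-3-dv8, except that the log2 ratio of Trav14-3 turned from -0.46 to 0.028 with every cell thinned to 4000 UMIs. Trav14-2 had 25 heart and 108 spleen UMIs, Trav14-3 had 26 and 69, and Trav14-1 had 4 and 36. Members outside Trav14d-3-dv8 made up 1.95% of the family's UMIs in heart cells (1.48 to 2.53%) and 7.19% in spleen cells (6.29 to 8.17%). Trav14n-3 had 1 and 4 UMIs. The other 4 members, Trav14d-1, Trav14d-2, Trav14n-1 and Trav14n-2, had no UMI, and under 10% of the 90-base windows of each were unique among Trav, Trbv and Trdv transcripts. With Trav14d-3-dv8 alone counted as the TEa alpha segment, its share of Trav UMIs was 77.2% in heart cells and 54.4% in spleen cells.

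No other Trbv segment reached 1 CPM. Trbv20 had 32 and 52 UMIs in heart and spleen cells, Trbv17 had 39 and 44, Trbv12-2 had 29 and 49, and Trbv15 had 23 and 30, and for each of these 4 the interval of the ratio included 1. Trbv13-2, a segment of the V beta 8 family, had 3 heart and 30 spleen UMIs, 7.52 times higher in spleen (2.34 to 38.5). Trbv2 had 11 and 32 UMIs, 2.19 times higher (1.07 to 4.81). For Trbv31 (11 and 22), Trbv1 (6 and 20), Trbv3 (10 and 15), Trbv4 (4 and 13), Trbv12-1 (5 and 11) and Trbv16 (5 and 8) the counts were too few to separate the libraries. The spread over the other Trbv segments, as an inverse Simpson number (the number of equally used segments that would give the same evenness), was 8.71 in heart cells and 12.4 in spleen cells.

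In all, 94 of the 163 segments had a UMI in either library and 69 had none. Of the 69 without a UMI, 58 were Trav, and 42 of these had under 10% unique windows. Such copies can lose reads to their near-identical partners, and a count of 0 for them says little about transcription. For a segment that does not lose reads in this way, 0 UMIs limits the level to 0.0710 CPM in heart and 0.0533 CPM in spleen.

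Position along the alpha locus went together with detection. The 119 other Trav segments lie within 1900 kb before Trac, and their names with d or n mark the duplicated stretch in the middle and far part. The 42 segments within 800 kb of Trac held 92.5% of other Trav UMIs in heart and 92.1% of them in spleen. Of the 38 segments at 800 to 1200 kb, 22 had no UMI in either library, and of the 39 beyond 1200 kb, 26 had none. The median share of unique windows fell over the same intervals, from 84.7% at 400 to 800 kb to 19.2% at 800 to 1200 kb and 5.52% beyond, and the part of read matching in this pattern was not tested. Trav14d-3-dv8, at 1141 kb, lies among segments with few or no UMIs. Pseudogene segments made up 78 of 774 other Trav UMIs in heart and 256 of 2129 in spleen, mainly Trav22 and Trav8-2, against 1.53% and 1.58% of other Trbv UMIs.

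**Figure D2:**
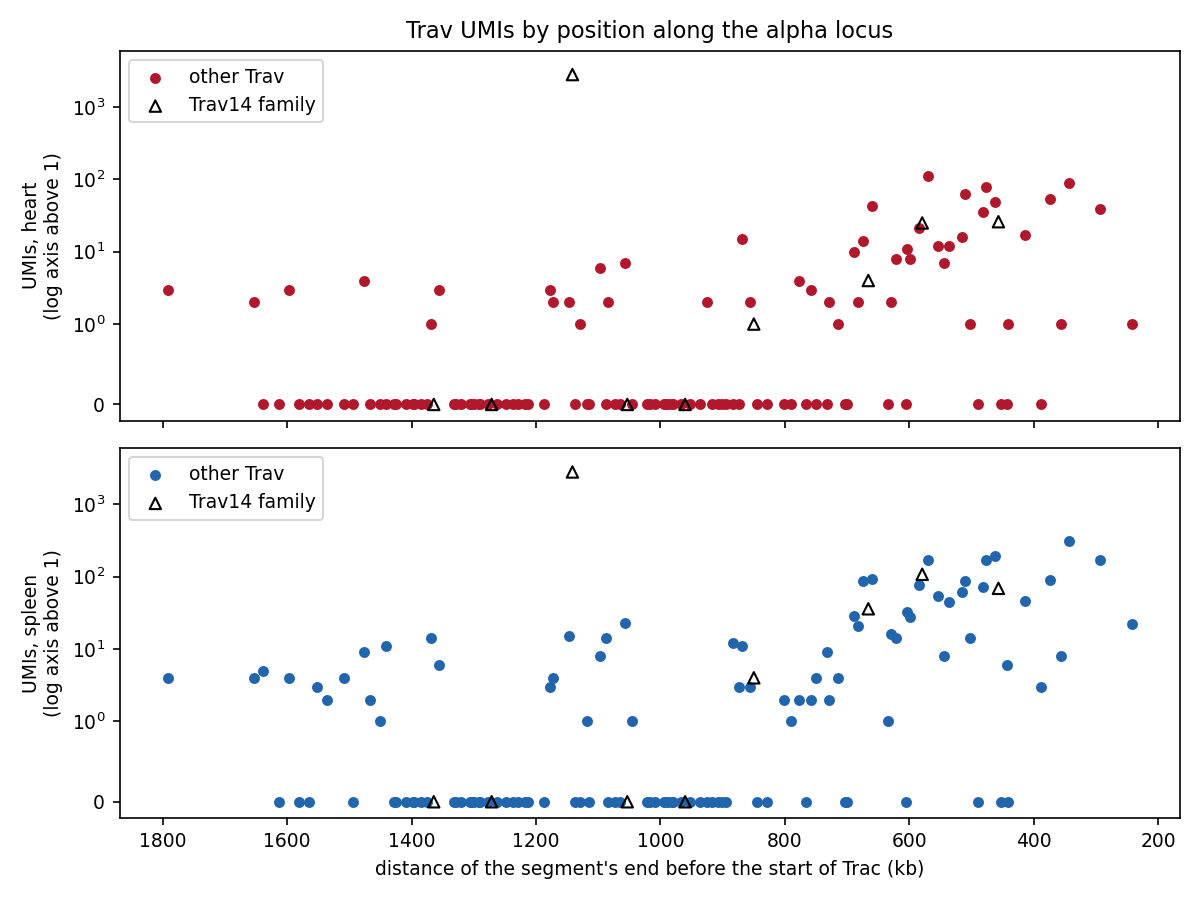
UMIs of each Trav segment (y, log axis above 1, with segments without UMIs at 0) against its distance before the start of Trac in kb (x), for the heart library (top) and the spleen library (bottom). Filled points are other Trav segments and open triangles the Trav14 family, of which Trav14d-3-dv8 stands alone at the top near 1141 kb while the other counts above 20 lie within 800 kb of Trac, except that of Trav13n-1 in spleen (23 UMIs at 1058 kb).

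Segments with like totals were spread over cells in different ways. Trav22 occurred in 38 heart and 168 spleen cells, with 1.03 and 1.02 UMIs per cell that held it and never more than 2 UMIs. Trav19, with fewer UMIs in spleen, occurred in 21 heart and 39 spleen cells, with 2.57 and 2.33 UMIs per such cell and up to 12 and 14 UMIs in a cell. Trav6-7-dv9 (2.10 and 1.81 UMIs per cell) was also concentrated in few cells. Trav21-dv12 lay between, with 1.26 UMIs per cell in heart and 1.58 in spleen. Trbv segments were spread thinly, Trbv19 included (1.26 and 1.15 UMIs per cell, with at most 5 and 4 UMIs in a cell).

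**Figure D3:**
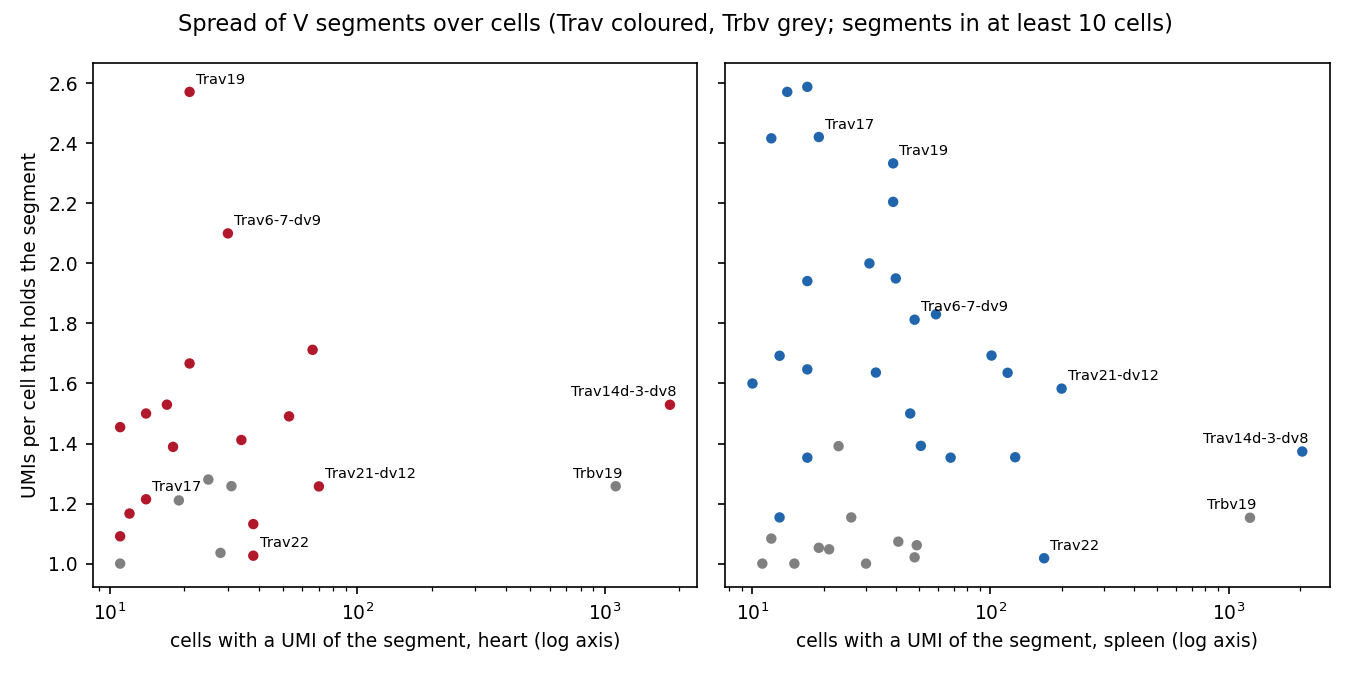
UMIs per cell that holds a segment (y) against the number of such cells (x, log axis), for segments found in at least 10 cells of the heart library (left) and the spleen library (right), with Trav coloured and Trbv grey. Trav19 stands high with few cells, Trav22 stands near 1 UMI per cell with 168 spleen cells, and Trav14d-3-dv8 and Trbv19 lie at the right.

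Cells with several UMIs of another Trav segment usually had them from 1 segment. At least 3 other Trav UMIs were found in 55 heart cells and 198 spleen cells, and in 43 (78.2%) and 136 (68.7%) of these all came from 1 segment. At least 3 UMIs of a given other Trav segment were found in 48 heart cells, led by Trav15-2-dv6-2 (8 cells), and in 169 spleen cells, led by Trav21-dv12 (26 cells). A Trav14 UMI was found in 27 of these 48 heart cells (56.3%, 41.2 to 70.5%) against 46.5% of the other heart cells. It was found in 67 of these 169 spleen cells (39.6%, 32.2 to 47.4%) against 32.0% of the other spleen cells. A Trav14 UMI was captured no less often in cells with 3 or more UMIs of another alpha segment than in the rest. The rest include cells without any Trav UMI. Depth also differed, as heart cells with another Trav UMI had a median of 9756 UMIs against 8237 in all kept heart cells. In spleen these medians were 8165.5 and 7988, and the part of depth and capture in this comparison was not tested. A Trbv19 UMI was found in 37.5% (24.0 to 52.6%) of the 48 heart cells and 19.5% (13.8 to 26.3%) of the 169 spleen cells, against 27.7% and 18.7% of the others. At least 3 UMIs of a given other Trbv segment were found in only 4 heart cells and 2 spleen cells.

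Free RNA limits what 1 UMI says about a cell. Barcodes with 1 to 100 UMIs, which hold no cell, carried Trbv at 38.0 CPM in heart (29.0 to 48.8) and, in spleen, at 35.8 CPM (29.2 to 43.5), about the level of kept cells. They carried Trav at 39.2 CPM (30.1 to 50.2) and 47.0 CPM (39.4 to 55.7), below the level of kept cells. Of the 87 heart barcodes with macrophage and dendritic cell genes, which had a median of 24743 UMIs and also held T cell RNA, 34.5% had a Trbv19 UMI and 42.5% a Trav14 UMI, against 27.8% and 46.6% of kept heart cells. A Trbv19 UMI in a cell was therefore not read as expression by that cell, and the cell classes below are counts of what was captured.

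Cells were then sorted by what they held. Of the 1212 heart cells with a Trbv UMI, 86.6% held Trbv19 alone, 8.42% another Trbv alone and 5.03% both. Of the 1498 spleen cells with a Trbv UMI, these shares were 77.3%, 17.8% and 4.87%. The heart minus spleen difference was -9.41 percentage points for another Trbv alone (-11.9 to -6.89), while the share with both differed by 0.160 points (-1.47 to 1.85).

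The alpha classes showed the same order with a larger gap. Of the 2079 heart cells with a Trav UMI, 76.2% held the Trav14 family alone, 10.6% another Trav alone and 13.2% both. Of the 2917 spleen cells, 58.7%, 27.4% and 13.9% did so. The heart minus spleen difference for another Trav alone was -16.8 percentage points (-18.9 to -14.7), and the share with both differed by -0.657 points (-2.56 to 1.29). With every cell thinned to 4000 UMIs (87 heart and 74 spleen cells were shallower and left out), another Trav was found in 6.15% of heart cells and 11.1% of spleen cells, against 12.4% and 18.3% unthinned, and another Trbv in 1.69% and 2.56%, against 4.09% and 5.18%.

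Where both chains were captured, 470 of 697 heart cells (67.4%, 63.8 to 70.9%) and 345 of 756 spleen cells (45.6%, 42.0 to 49.3%) held Trbv19 alone together with Trav14 alone, a difference of 21.8 percentage points (16.8 to 26.7). In cluster 5, the cycling cells described below, the difference was 8.26 points (-9.94 to 27.6) for this class, -6.21 points for another Trbv alone and -6.62 points for another Trav alone, all with intervals that included 0. In the heart library no difference in Trav14 capture between the beta classes was resolved. A Trav14 UMI was found in 46 of 51 heart cells with another Trbv alone (90.2%) and in 555 of 609 heart cells with Trbv19 alone (91.1%). The difference was -0.937 percentage points, with a wide interval (-12.3 to 5.15). In the spleen library the same shares were 88 of 136 cells (64.7%) and 437 of 582 cells (75.1%), a difference of -10.4 percentage points (-19.4 to -2.01). Whether this contrast differs between the libraries was not tested. Another Trbv alone together with another Trav alone was found in 5 heart cells (0.717%) and 48 spleen cells (6.35%).

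Shares were also read in groups of cells clustered without any receptor gene, and the Trav14 share of spleen cells varied between them. In heart, Trbv19 made up 89.8% of Trbv UMIs in cluster 1, led by Cxcr6 and Itgae, a tissue-homing receptor and an integrin of tissue retention. It made up 84.7% in cluster 3, led by the heat shock gene Hspa1b and by Ifng, and 86.2% in cluster 5, led by histone and mitosis genes of cycling cells. The Trav14 shares of these clusters were 79.5%, 78.5% and 77.5%, and for both segments the intervals of the clusters overlapped.

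The Trav14 shares of the spleen clusters lay further apart. Cluster 0, the largest and led by Dapl1, had a Trbv19 share of 76.5% and a Trav14 share of 56.1% (54.1 to 58.1%). Cluster 4, led by the chemokine gene Ccl5 and by Id2, had a Trav14 share of 65.4% (61.9 to 68.8%), and the 140 spleen cells of cluster 5 had 69.5% (63.0 to 75.6%). Within cluster 5, which alone held over 100 cells of both libraries, the Trbv19 share was 86.2% in heart and 86.5% in spleen, a difference of -0.363 percentage points (-8.03 to 11.8), and the Trav14 share was 7.97 points higher in heart (1.63 to 14.8). Without cluster 5 the heart minus spleen differences were 9.61 points for Trbv19 (6.89 to 12.2) and 21.0 points for Trav14 (18.9 to 23.1). Cluster 9, 31 spleen cells led by Igfbp4, Ly6c1 and Bcl2, had Trbv19 in 2 of 4 Trbv UMIs and Trav14 in 3 of 8 Trav UMIs.

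**Figure D4:**
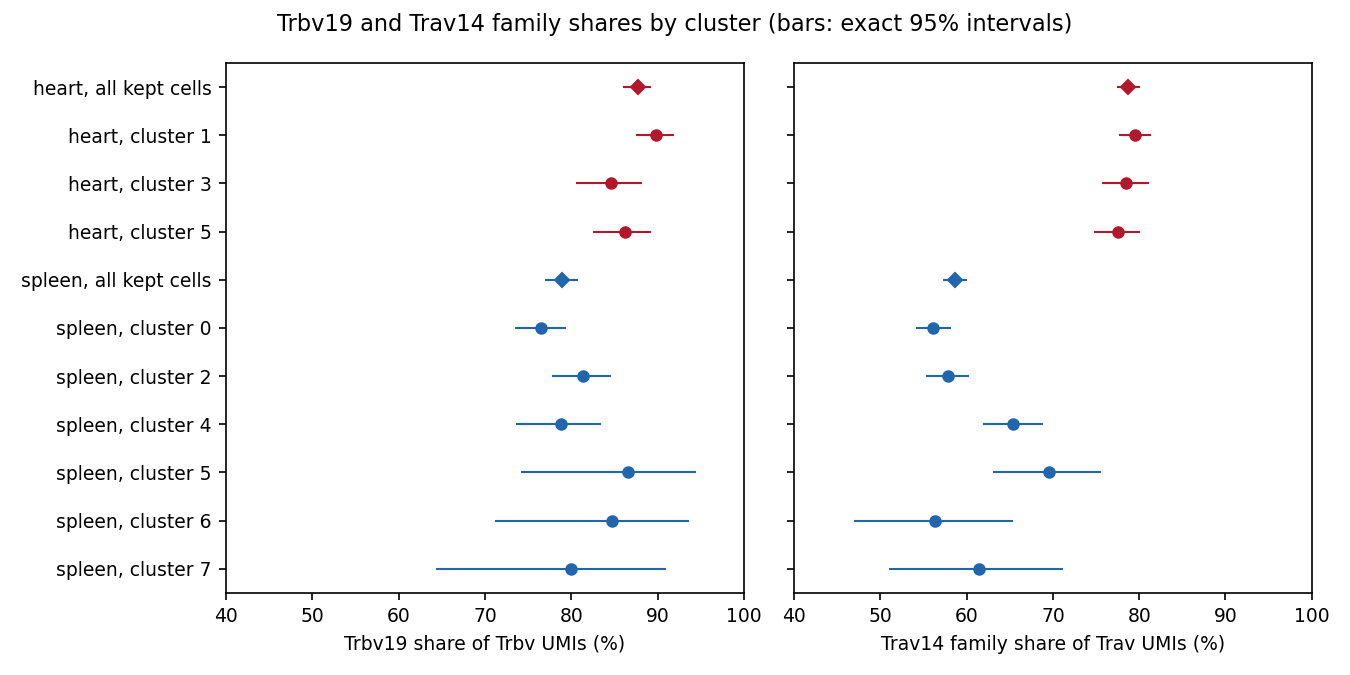
Trbv19 share of Trbv UMIs (left) and Trav14 family share of Trav UMIs (right), both in percent on an axis that starts at 40, for all kept cells (diamonds) and for each cluster with over 100 cells of the library shown (circles), heart in red and spleen in blue, with exact 95% intervals. The plotted heart clusters lie above 77% for Trav14 and the plotted spleen clusters below 70%, while the Trbv19 intervals of cluster 5 overlap between the libraries.

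In spleen, the Trav14 share also varied with some genes of activation and memory, read 1 at a time. Spleen cells with a UMI of Ifng, the effector cytokine interferon gamma, had a Trav14 share of 65.5% (60.8 to 69.9%) against 58.0% without one (56.6 to 59.4%), and cells with Gzmb, encoding granzyme B, one of 66.0% against 58.1%. Cells with Tcf7, a transcription factor of naive and stem-like T cells, had a share of 57.9% against 65.5% without, a difference of -7.60 percentage points (-11.9 to -3.09). The difference was 4.65 points for Mki67 (0.0268 to 9.08), a gene of cycling cells. For Il2, encoding interleukin 2, it was -0.792 points (-4.51 to 2.86), for Gzmk, encoding granzyme K, 1.65 points (-4.35 to 7.39), and for Cxcr5, a follicle homing receptor, 2.94 points (-0.163 to 5.99), all with intervals that included 0. In heart the same contrasts for Ifng, Gzmb and Tcf7 were -2.70, 3.08 and -0.686 points. Heart cells with Tcf7 had a Trbv19 share of 84.0% against 89.6% without, and heart cells with Itgae had 84.2% against 89.5%. Spleen cells with an Ifng UMI had a median of 8884 UMIs against 7938 without one, and the part of depth in these contrasts was not tested.

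The constant genes varied with the V segments. Trbc1 and Trbc2, the alternative beta constant genes, are near-identical in their coding part, and Trbc1 took 11.7% of Trbc UMIs in heart and 17.1% in spleen. In heart it took 10.6% in cells with Trbv19 alone and 17.4% in cells with another Trbv alone. In spleen the values were 16.5% and 18.4%. Among cells with at least 20 Trbc UMIs, those in which Trbc1 took at least 30% (301 heart and 1056 spleen cells) had a Trbv19 share of 66.4% (58.1 to 74.1%) in heart and 71.1% (65.7 to 76.1%) in spleen. Cells under that value had 89.9% (88.2 to 91.4%) and 81.1% (79.0 to 83.1%). The Trav14 share went the same way, with 66.7% against 80.0% in heart and 52.9% against 60.8% in spleen. The value of 30% was chosen after the data were seen, and 235 heart and 609 spleen cells lay between 25 and 35%.

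Trdc, the delta constant gene, lies between the Trav segments and Trac, and joining of an alpha segment to J on the same chromosome deletes it. A Trdc UMI was found in 57.4% of heart cells and 61.1% of spleen cells. In spleen cells without a Trdc UMI the Trav14 share was 50.1% (48.0 to 52.2%), and in those with one it was 65.3% (63.5 to 67.0%), 15.2 percentage points higher (12.5 to 17.9). In heart cells the same shares were 77.1% and 79.9%, 2.72 points apart (0.0159 to 5.47). The Trbv19 share in spleen was 74.4% without and 82.0% with a Trdc UMI, and in heart 87.3% and 87.9%. In spleen the Trav14 share did not rise further with more Trdc, with 68.5% at 1 to 2 UMIs and 60.7% at 12 or more.

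**Figure D5:**
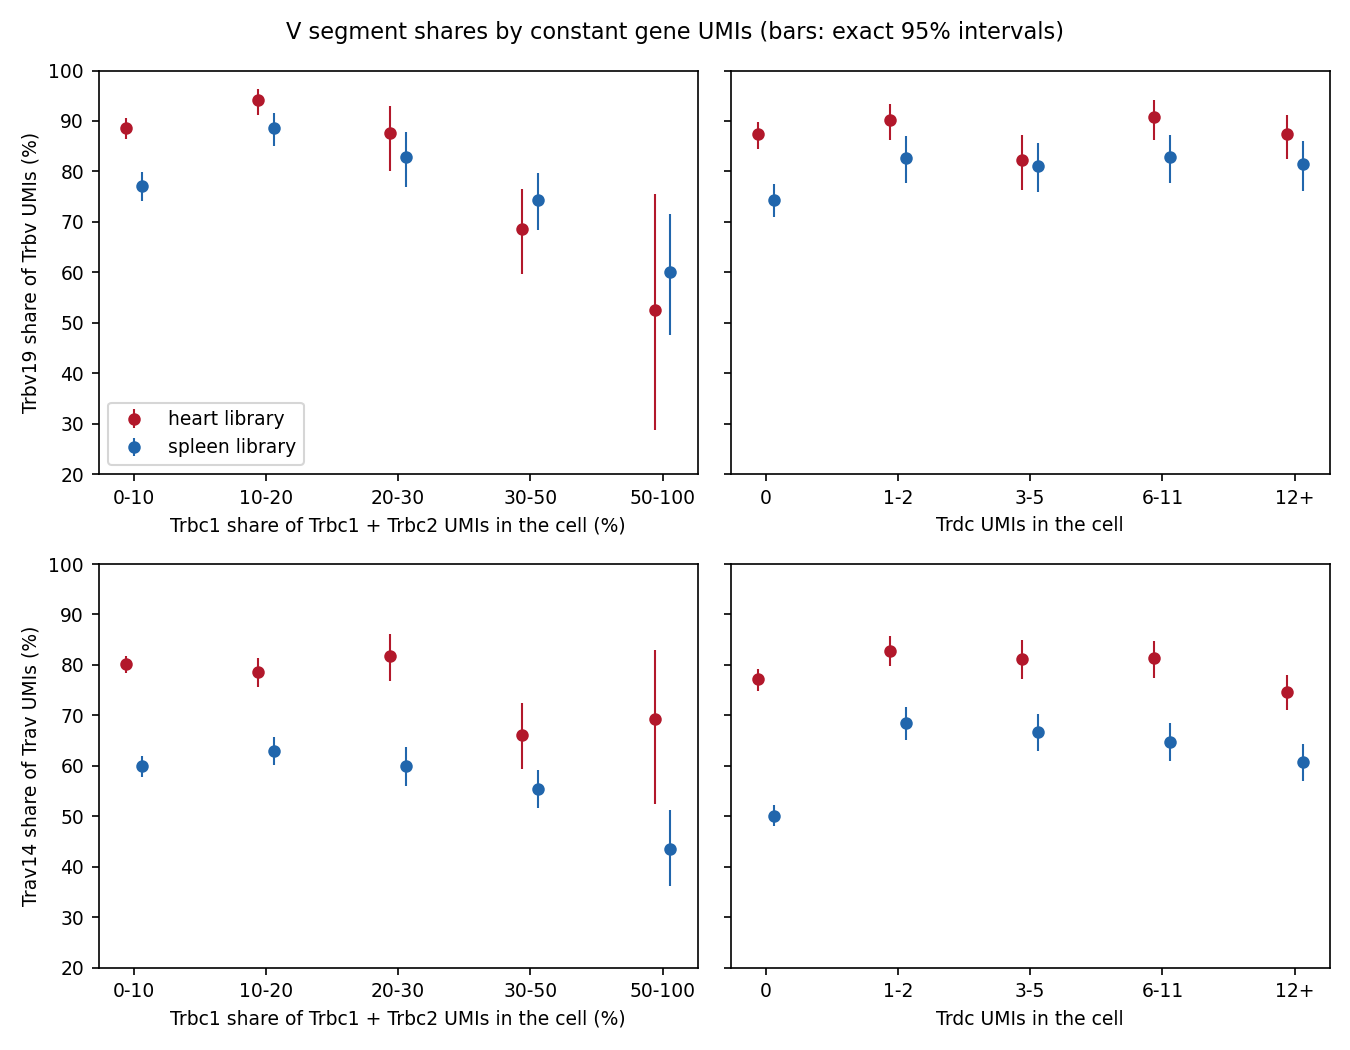
Trbv19 share of Trbv UMIs (top) and Trav14 family share of Trav UMIs (bottom), in percent on axes that start at 20, for cells grouped by the Trbc1 share of their Trbc UMIs (left, cells with at least 20 Trbc UMIs) and by their Trdc UMIs (right), with exact 95% intervals, heart in red and spleen in blue. The Trbv19 share is lowest where Trbc1 takes 50% or more, at 52.6% in heart and 60.0% in spleen, and the Trav14 share of spleen cells is lowest, at 50.1%, where no Trdc UMI was found.

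Other genes of the receptor were read from a fixed list of 101. Of these, 12 reached 1 CPM, 0 were at least 2-fold higher in heart and 1, the delta segment Trdv5 (66 and 182 UMIs), was at least 2-fold lower, against 10.9% and 15.7% of all genes. No UMI was found for any of the 14 Trbj, 60 Traj or 2 Trbd segments, whose exons are very short, so V to J pairs could not be read. Rag1 and Rag2 had no UMI. The 6 Trdv segments summed to 14.6 CPM in heart and 23.1 CPM in spleen, with Trdv2-2 highest (279 and 651 UMIs). Trgv2, a gamma segment, had 33 heart and 3 spleen UMIs.

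Cells that held other segments differed in level from cells with the TEa segments for some genes, by beta class mostly in 1 of the libraries. In heart, cells with another Trbv alone had Ctla4, an inhibitory receptor, at 636 CPM (592 to 682) against 810 CPM (795 to 825) with Trbv19 alone. Gzmb was at 282 CPM (253 to 314) against 409 CPM (399 to 421), and Klf2, a factor of quiescence and egress, at 76.7 CPM (61.9 to 94.0) against 43.7 CPM (40.2 to 47.4). In spleen, Gzmb was at 38.3 CPM (30.8 to 47.0) against 79.7 CPM (74.4 to 85.3), and the cycling gene Mki67 at 35.3 CPM (28.2 to 43.8) against 60.4 CPM (55.8 to 65.2). Mki67 in heart was at 134 CPM (115 to 157) against 143 CPM (136 to 149), and in spleen Ctla4 was at 28.2 against 28.8 CPM and Klf2 at 882 CPM (845 to 921) against 850 CPM (832 to 867), with overlapping intervals. Cd4 did not separate the classes, with 140 against 142 CPM in heart and 207 against 208 CPM in spleen. These intervals treat UMIs as independent, and a few cells with many UMIs widen the true error.

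By alpha class, Mki67 was lower with another Trav alone than with Trav14 alone in both libraries, with 77.5 CPM (66.7 to 89.7) against 131 CPM (126 to 137) in heart. The spleen values were 29.0 CPM (25.2 to 33.4) and 61.7 CPM (57.9 to 65.8). Trac was also lower, at 2291 against 2748 CPM in heart and 1757 against 2457 CPM in spleen. Gzmb was not, at 376 against 375 CPM in heart and 72.2 against 64.1 CPM in spleen. Ccr7 was higher with another Trav alone, at 87.8 CPM (76.2 to 101) against 57.1 CPM (53.7 to 60.7) in heart. Its spleen values were 117 CPM (109 to 125) and 96.5 CPM (91.7 to 102). Median UMIs per cell were 8679 and 8729 in the heart classes and 8054 and 8244 in the spleen classes. Cells with both kinds of Trav are in neither class, and their medians were 11272 UMIs in heart and 8584 in spleen. Read by UMI share, heart cells with a Mki67 UMI had a Trav14 share of 77.6% against 79.2% without. That difference was -1.63 points (-4.59 to 1.23), against 4.65 points (0.0268 to 9.08) in spleen. The part of depth in the Mki67 contrast was not tested.

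The CD8 T cell markers Cd8a and Cd8b1 moved with the beta class in heart. They summed to 78.3 CPM (63.4 to 95.8) with another Trbv alone and 9.82 CPM (8.21 to 11.7) with Trbv19 alone. For the marker lists of cells other than T cells the intervals of these heart classes overlapped, with B cell markers at 42.1 CPM (31.3 to 55.3) and 48.1 CPM (44.5 to 52.0). Cd8a was at 28.9 CPM (20.1 to 40.1) in heart cells with another Trbv alone and at 1.27 CPM (0.743 to 2.04) with Trbv19 alone, from 4 of 102 and 3 of 1049 cells. A Cd8b1 UMI was found in 12 of 102 (11.8%, 6.23 to 19.6%) and 75 of 1049 cells (7.15%, 5.66 to 8.88%), with overlapping intervals. By alpha class in heart, Cd8a and Cd8b1 summed to 31.3 CPM (24.5 to 39.3) with another Trav alone. With Trav14 alone they summed to 12.9 CPM (11.3 to 14.6). Both Cd8a and Cd8b1 were found in 20 heart cells, in which Trbv19 made up 8 of 15 Trbv UMIs, and in 0 of 6569 spleen cells, which allows a share of up to 0.0457%. Without all cells that held a Cd8a or Cd8b1 UMI, the Trbv19 share was 88.4% in heart and 78.7% in spleen and the Trav14 share 79.3% and 59.4%. Natural killer cell markers (4 of 4 listed) summed to 0.378 CPM in heart and 7.79 CPM in spleen. B cell markers (5 of 5) summed to 44.9 and 177 CPM, with 170 CPM both in spleen cells with Trbv19 alone and in those with another Trbv alone. Of 11436 erythroid marker UMIs in spleen, 10297 came from 1 cell, which fell in the class with another Trav alone.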

How the data were processed

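The authors deposited, for each wild-type library, a matrix of UMI counts with no scaling, by gene and barcode. Per the file headers, software version 3.0.2 wrote both. Cell Ranger 7.0.0 and Seurat 4.0.0 are named per the submitters' processing notes, with the build mm10. The libraries used 3' chemistry per the labels' protocols, which speak of nuclei at one point and of sorted cells at another. Neither the annotation release nor the handling of intronic reads is given in the sources used here. All members and gene lists were chosen with earlier results of these data known. The values of 1 gene used to describe cell states are not reported here.

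A barcode was kept if it had 1000 or more UMIs over 500 or more genes, with no more than 10% mitochondrial UMIs. Both libraries were clustered together in scanpy 1.11.5 (2000 variable genes, 30 components, 15 neighbours, Leiden resolution 0.6) without receptor genes, and 1 cluster of other cells was removed. No doublet caller was run. An alternative left out cells over 2 times the median UMIs of their library. Sums of UMIs over each library's cells were expressed as CPM with exact Poisson intervals, and shares with exact (Clopper-Pearson) intervals, at a 95% level. Segments were called at 2-fold with at least 1 CPM in either library. Limits for a count of 0 use 3 counts. No test was run, since each tissue had 1 library. All 163 members matched GENCODE M21 by gene ID. A 90-base window was unique if it occurred in transcripts of 1 Trav, Trbv or Trdv gene. The functions were tested on simulated data. Segments named were Trbv19, Trav14 members with at least 10 UMIs, the 12 other Trbv and 12 other Trav with most UMIs, those called, and fixed constant and state genes. Segments outside this rule (Trav14n-3, Trav14 members at 0, Trdv5, Trdv2-2 and Trgv2) were named after their values were seen.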

Additional observations from a re-analysis of the deposited data

Results flagged for a closer look

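V segment UMIs also appeared in barcodes that no comparison between the tissues used. Barcodes with 1 to 100 UMIs held 61 Trbv and 63 Trav UMIs in the heart library and 102 Trbv and 134 Trav UMIs in the spleen library. Trbv19 made up 90.2% of these Trbv UMIs in heart (79.8 to 96.3%) and 77.5% in spleen (68.1 to 85.1%), close to the 87.7% and 78.9% of kept cells. The Trav14 family made up 77.8% of the Trav UMIs there in heart (65.5 to 87.3%) and 68.7% in spleen (60.1 to 76.4%), against 78.7% and 58.7% in kept cells. The 87 heart barcodes with macrophage and dendritic cell genes held 51 Trbv UMIs, all of Trbv19, and 97 Trav UMIs, of which 84.5% were of the Trav14 family (75.8 to 91.1%). None of these barcodes held another Trbv segment, and 0 of 87 allows a share of up to 3.45%.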

How the results depend on the processing

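No paired analysis was possible because each tissue had 1 library. Of 72 alternative values of the heart minus spleen differences in shares, 63 moved by less than their counting interval, 8 by more and 1 reversed. The difference in the Trav14 share ranged from 7.97 to 22.8 percentage points and that in the Trbv19 share from -0.363 to 9.92. In cluster 5 alone, an alternative chosen after seeing the data, the Trbv19 share was 86.5% in spleen (difference -0.363) and the Trav14 share 69.5% (difference 7.97). Another Trbv alone was then found in 6.29% of heart and 12.5% of spleen cells with a Trbv UMI (difference -6.21), another Trav alone in 7.84% and 14.5% (difference -6.62), and Trbv19 alone with Trav14 alone in 55.6% of spleen cells (difference 8.26). In cells with at least 2 UMIs of the family, the Trbv19 share was 84.3% in heart and 74.9% in spleen, and the Trav14 share 74.8% and 53.2%. Another Trbv alone fell there to 4.30% and 10.5% (difference -6.20) and another Trav alone to 7.52% and 22.2%. Another Trbv alone then went with a Trbc1 share 14.5 points higher than Trbv19 alone in heart and 9.16 points in spleen, and another Trav alone with one 5.12 points higher in heart.

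As a mean over cells the Trav14 share was 83.1% and 65.2% (difference 17.8), and with Trav14d-3-dv8 alone it was 77.2% and 54.4% (difference 22.8). Without pseudogenes, also chosen after seeing the data, it was 80.5% and 61.7%, another Trav alone was found in 24.1% of spleen cells (difference -14.5), and Trbv19 alone with Trav14 alone in 49.8%. After thinning to 4000 UMIs another Trav alone was found in 14.5% and 31.7%, the joint class in 51.8% of spleen cells, and 9 and 13 other Trbv and, in spleen, 30 other Trav segments had at least 3 UMIs. Thinning turned the log2 ratio of Trav6-7-dv9 to 0.16 and of Trav14-3 to 0.028. The number of segments past the level was 28 at 0.5 CPM (15 lower in heart, against 16.6% of all genes) and 7 at 3 CPM (3 lower, against 13.6%), since the level sets how many are looked at. With totals that leave out mitochondrial, ribosomal protein and Malat1 UMIs, 13 of 24 were lower, against 21.1% of all genes, and the median of all genes moved to -0.33. At resolution 1.0 the lowest cluster shares were 72.2% for Trbv19 in spleen, 74.0% for Trav14 in heart (highest 87.9%) and 42.5% in spleen. Except where stated, the causes were not tested. Depth limits all classes, since most cells had 0 or 1 V segment UMIs.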

Other observations

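Among cells picked out by other genes, those with Cd8b1 had a lower Trav14 share in both libraries. For Klrb1c, Foxp3 and Il10 the intervals of the differences included 0. In spleen, 169 cells held a UMI of Klrb1c, the natural killer cell receptor NK1.1, and Trbv19 made up 57 of their 66 Trbv UMIs (86.4%) against 78.6% in the rest, a difference of 7.77 percentage points (-2.69 to 14.4), with a Trav14 share of 62.0% against 58.5% (-4.19 to 10.7). The 260 spleen cells with a Cd8b1 UMI had a Trav14 share of 44.2% (38.0 to 50.5%) against 59.4% in the rest, a difference of -15.2 percentage points (-21.3 to -8.97), while their Trbv19 share was 82.6% against 78.7%. For heart cells with a Cd8b1 UMI the difference was -5.90 points in the Trav14 share (-11.1 to -1.16). In the Trbv19 share it was -8.70 points (-16.6 to -2.40). In heart, 43 cells held a UMI of Foxp3, the factor that marks regulatory T cells, with a Trav14 share of 85.4% against 78.7% in the rest (difference -5.89 to 14.2 points) and a Trbv19 share of 77.8% against 87.9% (difference -28.7 to 1.66 points). The 467 heart cells with a UMI of Il10, a regulatory cytokine, had a Trbv19 share of 91.4% against 87.1% in the rest, with an interval of the difference of -0.496 to 7.84 points.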
